A study of Mus musculus with 2 samples.

Results

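The genes described here were 9 transcription factors that set the identity of myeloid cells, chosen by name from 32285 genes in the deposited matrices: Spi1, Cebpa, Cebpb, Klf4, Maf, Irf8, Batf3, Zbtb46 and Irf4. All 9 were detected. The measurements were single-cell RNA sequencing of adrenal glands from 7-week-old C57Bl/6 mice, after live CD45+ cells had been purified by flow sorting, with 1 library from female mice and 1 from male mice and no treatment or allele named for either. The adrenal gland is the endocrine organ that makes corticosteroids and catecholamines, and CD45 is a surface protein of immune cells. The study asked how adrenal immune cells, above all macrophages, differed between the sexes. How many animals went into a library is not given in the sources used here, and with 1 library per sex no test across animals was possible. No p-values are therefore given, and every 95% interval covers counting error only.

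Myeloid cells arise from a shared progenitor, and their fate is set by a small group of DNA-binding proteins acting in combination. PU.1, the product of Spi1, works together with the C/EBP proteins in monocytes, macrophages and neutrophils, and with IRF4 or IRF8 at sites where the DNA motifs of both proteins lie next to each other. MAF restrains macrophage self-renewal, KLF4 is known from monocyte differentiation, and IRF8 with BATF3 is required for type 1 conventional dendritic cells (cDC1), whereas IRF4 and KLF4 act in type 2 conventional dendritic cells (cDC2).

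The female library held 3963 barcodes with 16218309 unique molecular identifiers (UMIs, each standing for 1 captured RNA molecule) and the male library 2685 barcodes with 9512670 UMIs. After filters on detected genes, mitochondrial RNA and doublets, 3693 female and 2450 male cells remained, with a median of 3491 and 2988 UMIs. Only 2 barcodes occurred in both libraries. Cells were assigned to classes from lists of marker genes that held none of the 9 factors, so a class name stands for the markers its cells carried. A cell could enter the macrophage group through any of 3 lists: the macrophage list (with C1qa, C1qb, C1qc and Mertk), the Lyve1-high list or the Aldh1a2-high list. Cells of the last 2 subsets therefore need not carry C1q genes or Mertk. The group was divided into Lyve1-high cells (60 female and 119 male), Aldh1a2-high cells (95 and 116) and other macrophages (719 and 701). Classical monocytes numbered 174 and 71, nonclassical monocytes 55 and 50, cDC1 32 and 31, cDC2 38 and 34, plasmacytoid dendritic cells (pDC) 13 and 5, and neutrophils 46 and 50. Of the cells, 9.26% in the female and 9.06% in the male library were left without a class. The macrophage marker list summed to 51555 CPM (UMIs of the genes divided by all UMIs of the class, scaled to 1000000 UMIs) in female and 38882 CPM in male other macrophages. It summed to 27681 and 26384 CPM in Lyve1-high macrophages and to 6460 and 6566 CPM in Aldh1a2-high macrophages. Classical monocytes held 3522 and 2934 CPM of it, cDC1 917 and 1169 CPM and B cells 633 and 545 CPM. The Lyve1-high cells also carried the Aldh1a2-high list, at 7746 and 8783 CPM, so these classes shared markers.

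Within each library the summed UMIs of classes were compared as a ratio of CPM, and a gene was called when the ratio was at least 2-fold in the same direction in both libraries, among genes with at least 20 UMIs over both classes in each library. Over 9 comparisons between classes, 67 combinations of factor and comparison had enough UMIs and 37 were called, while between 9.72% and 40.2% of all genes were called in the same comparisons. Of these 37, 2 had an interval that included 1 in at least 1 library. Levels are given below as CPM and are compared only between classes for the same gene, because UMI levels of different genes are not on a common scale here.

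**Figure D1:**
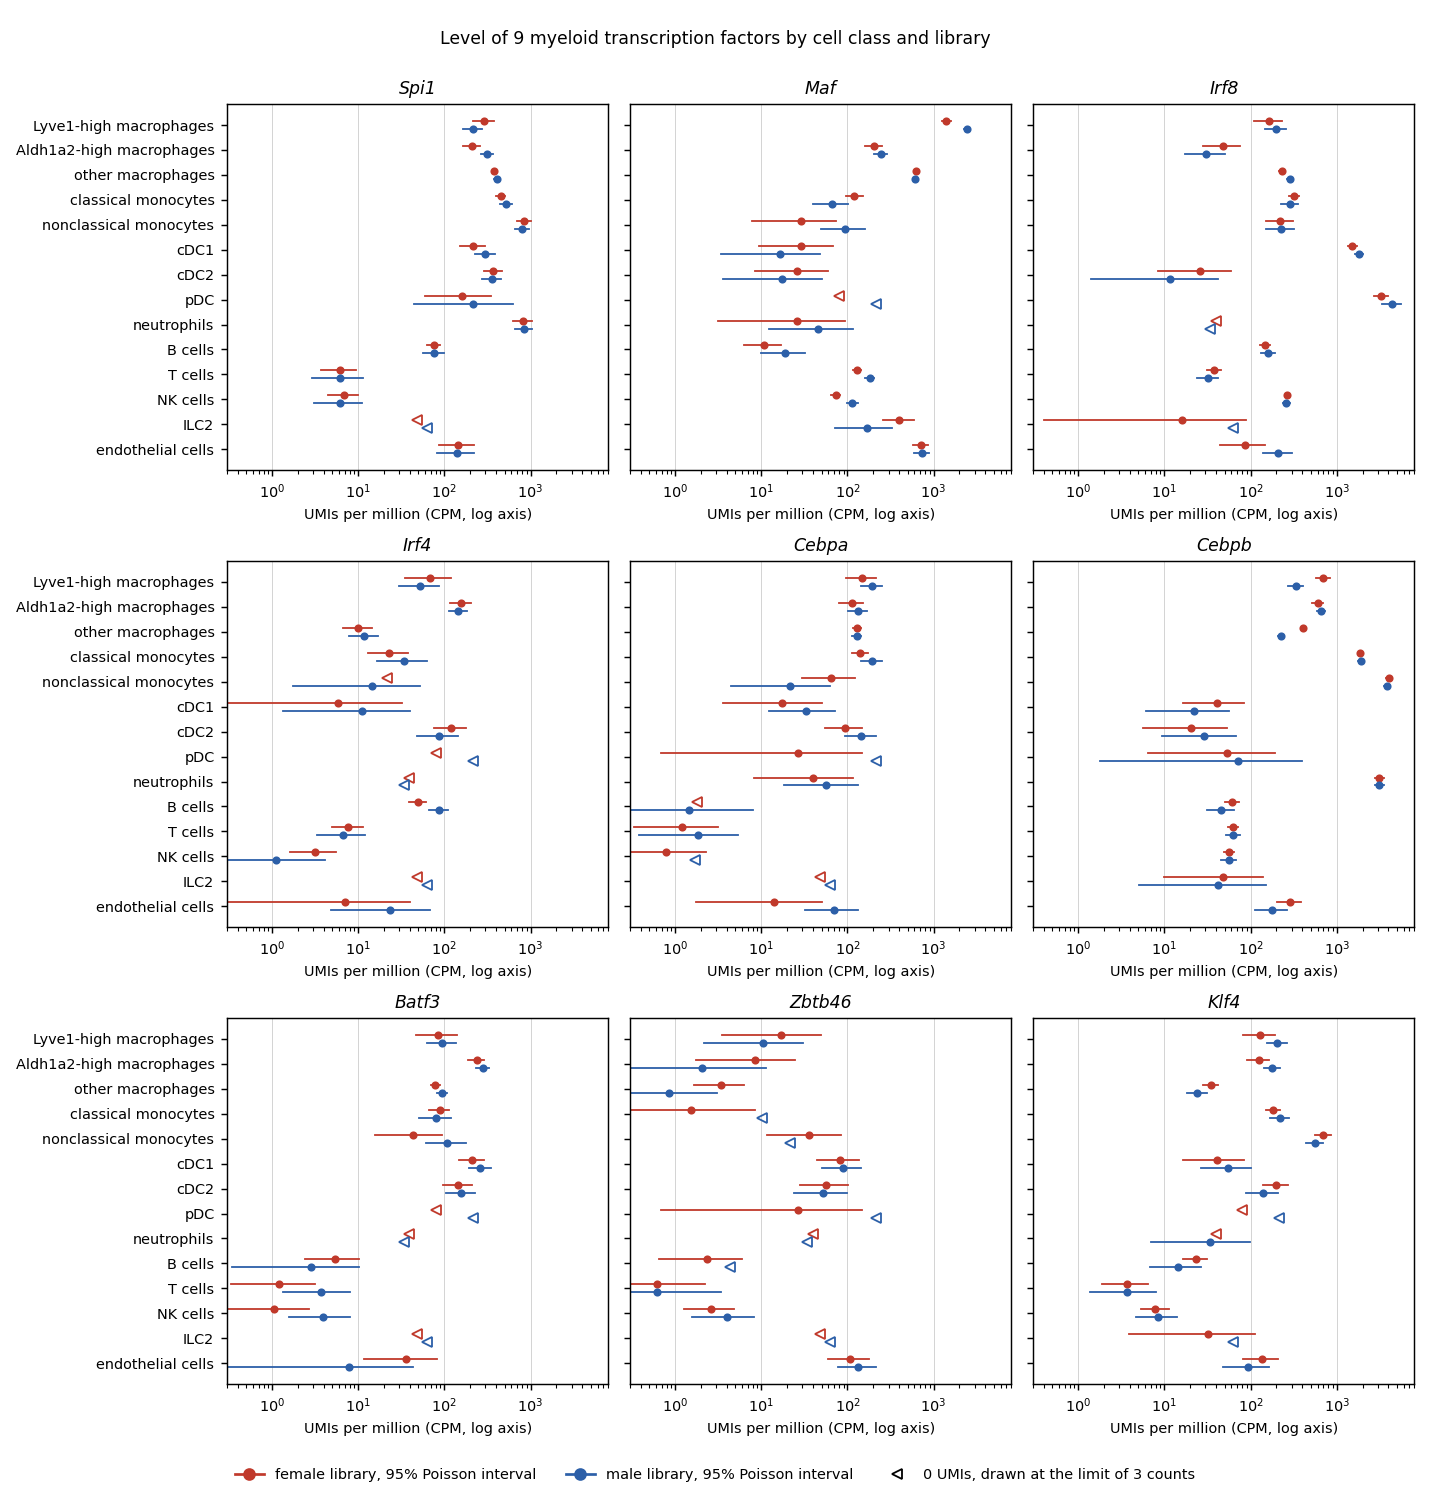
Level of each of the 9 factors in each cell class, in CPM on a log axis, with the female library in red, the male library in blue, bars for the exact 95% Poisson interval and open triangles at 3 counts for classes with 0 UMIs. Spi1 was highest in neutrophils and nonclassical monocytes, Cebpb in nonclassical monocytes, Maf in Lyve1-high macrophages and Irf8 in pDC and cDC1 in both libraries.

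Spi1 encodes PU.1, the ETS-family factor needed for all myeloid lineages and for early B cells (GRCm38, chr2:91082390-91115756, + strand). Its level was 813 CPM in female and 832 CPM in male neutrophils, and 848 and 793 CPM in nonclassical monocytes. The intervals of these top classes overlapped. Classical monocytes followed at 451 CPM (401 to 505) and 522 CPM (443 to 612), and other macrophages at 378 CPM (356 to 401) and 407 CPM (381 to 433). The intervals of nonclassical monocytes, classical monocytes and other macrophages did not overlap in either library, although the last pair met in the female library at 401 CPM after rounding. cDC2 held 366 and 353 CPM and cDC1 216 and 299 CPM. Between Aldh1a2-high and Lyve1-high macrophages the order turned between libraries, with 208 against 286 CPM in the female and 315 against 214 CPM in the male library. Spi1 was thus present throughout the myeloid classes, and no comparison among myeloid classes reached the 2-fold rule for it.

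B cells held Spi1 at 74.8 CPM (62.4 to 89) in the female and 75.8 CPM (56.8 to 99.1) in the male library. T cells stood at 6.07 and 6.12 CPM and NK cells at 6.81 and 6.18 CPM; these classes should lack PU.1 and give the background level. The B cell level over that of T and NK cells together was 11.6-fold (8.19 to 16.6) in the female and 12.3-fold (7.3 to 21.5) in the male library. Without removal of doublets the female ratio was 4.68. In cells thinned to 1000 UMIs, with shallower cells left out (656 of 719 female and 564 of 701 male other macrophages remained, for example), 8.26% of female and 6.8% of male B cells had a Spi1 UMI, against 0.59% and 0.69% of T and NK cells, and before thinning the shares were 20.8% and 19.1%. Median depth was 2245.5 and 1796 UMIs in B cells and 4051 and 4405.5 in T and NK cells.

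Cebpa and Cebpb encode basic leucine zipper proteins. C/EBPα opens the granulocyte and monocyte program in progenitors, and C/EBPβ acts in mature and activated myeloid cells and is required for nonclassical monocytes. Both genes are short and have no intron (Cebpa chr7:35119293-35121928, Cebpb chr2:167688915-167690418, both on the + strand). A gene annotated on the other strand overlaps each, Gm45091 for Cebpa and Tmem189 for Cebpb.

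Cebpb separated the myeloid classes over a wide range. Nonclassical monocytes held 4039 CPM (3714 to 4386) in the female and 3850 CPM (3530 to 4191) in the male library, and neutrophils 3145 and 3125 CPM. Classical monocytes held 1871 CPM (1768 to 1979) and 1917 CPM (1761 to 2083). After thinning to 1000 UMIs, 97.9% and 92% of nonclassical monocytes had a Cebpb UMI, against 5.44% and 6.76% of T and NK cells. Among macrophages the Aldh1a2-high cells held 602 and 663 CPM, the Lyve1-high cells 696 and 336 CPM, and the other macrophages 410 and 225 CPM. Both conventional dendritic cell classes were low, with 40.9 and 22.2 CPM in cDC1 and 20.6 and 29 CPM in cDC2. These lay below the level in T cells, 63.2 and 63 CPM, so no level above that of T cells was found in dendritic cells. In female cDC2 the interval (5.62 to 52.8) lay wholly below that of T cells (54.9 to 72.4).

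Monocytes as a whole held 5.06-fold (4.73 to 5.42) more Cebpb than macrophages in the female and 8.38-fold (7.67 to 9.15) more in the male library. The nonclassical over classical ratio was 2.16 (1.95 to 2.39) and 2.01 (1.78 to 2.27), at the edge of the rule. With a stricter marker gate, and with a mean over cells in place of summed UMIs, it was under 2-fold in at least 1 library.

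Cebpa was flatter. Its level was 146 and 193 CPM in Lyve1-high macrophages, 112 and 131 CPM in Aldh1a2-high macrophages, 128 and 128 CPM in other macrophages, 141 and 192 CPM in classical monocytes and 92.7 and 145 CPM in cDC2. The macrophage over monocyte ratio was 0.997 and 0.976, with all macrophages and all monocytes pooled. Lower levels were found in nonclassical monocytes, which had 9 UMIs (64.1 CPM) and 3 UMIs (21.6 CPM), a ratio to classical monocytes of 0.454 (0.201 to 0.899) and 0.112 (0.0225 to 0.346). With the stricter gate this call was also lost. B, T and NK cells held between 0 and 1.84 CPM. Cebpa and Cebpb therefore differed in opposite directions between the monocyte classes, Cebpb being higher and Cebpa lower in the nonclassical cells.

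Klf4 encodes a zinc finger protein known from monocyte differentiation and from cDC2 (chr4:55527143-55532466, − strand). Nonclassical monocytes held 698 CPM (567 to 851) in the female and 555 CPM (438 to 694) in the male library, and classical monocytes 182 CPM (151 to 218) and 220 CPM (169 to 281). The ratio between them was 3.83 (2.9 to 5.04) and 2.52 (1.79 to 3.57). The nonclassical cells therefore led in both libraries. Macrophages as a whole held less Klf4 than monocytes, at 0.179 (0.145 to 0.22) and 0.197 (0.158 to 0.245) of their level.

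Within macrophages Klf4 was higher in the smaller subsets. Other macrophages held 34.8 CPM (28.3 to 42.2) and 24 CPM (18.2 to 31.1). Lyve1-high cells held 129 and 203 CPM, 3.71-fold (2.25 to 5.88) and 8.46-fold (5.76 to 12.4) more, and Aldh1a2-high cells 124 and 180 CPM, 3.56-fold (2.44 to 5.12) and 7.5-fold (5.31 to 10.7) more. Of the 23 female and 58 male UMIs in Lyve1-high cells, 60.9% and 34.5% lay in the 5 cells that held most. In thinned cells a Klf4 UMI was found in 13.2% and 22.4% of Lyve1-high and 9.2% and 12.6% of Aldh1a2-high cells. The share in other macrophages was 2.74% and 1.24%. Both subsets also carried the classical monocyte list, at 1873 and 3056 CPM in Lyve1-high and 2123 and 2218 CPM in Aldh1a2-high cells, against 725 and 471 CPM in other macrophages. The part of this in the Klf4 differences was not tested. Under a mitochondrial ceiling of 1.2%, which left few cells, the calls of Klf4 in Aldh1a2-high over other macrophages and in nonclassical over classical monocytes were lost. cDC2 held 196 and 139 CPM and cDC1 40.9 and 55.4 CPM, a cDC1 over cDC2 ratio of 0.209 (0.0787 to 0.473) and 0.398 (0.17 to 0.864). Neutrophils held 0 UMIs in the female and 3 UMIs in the male library.

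Over monocytes and macrophages as a whole, 8 of the 9 factors had enough UMIs. Of these, 1 was higher in macrophages (Maf), 2 were lower (Cebpb and Klf4), and the median log2 ratio of the factors was -0.27 in the female and -0.09 in the male library. Of 9024 genes compared, 14.6% were called, and the median gene stood at 0.09 and 0.11. Of the related factors, a list of 43 partners and family members, 39 were compared. In macrophages 4 were higher, among them Runx3, Mitf and Etv5, and 9 were lower, among them Nr4a1 at 0.0589 and 0.0286 and Klf2 at 0.217 and 0.195 of the monocyte level. Between nonclassical and classical monocytes 7 factors were compared and 3 were called, with 9.72% of all 3189 genes called. Of 24 related factors compared there, Nr4a1, the orphan nuclear receptor required for nonclassical monocytes, was 5.39-fold and 3.96-fold higher, Bhlhe40 was also higher, and Irf7 was lower. In neutrophils against classical monocytes, 0 of 7 factors were higher and 4 were lower, Irf8, Batf3, Klf4 and Cebpa, but 40.2% of all genes compared were called there too. Spi1 at 1.8 and 1.59 and Cebpb at 1.68 and 1.63 stayed under the 2-fold rule. Cebpd, a C/EBP family member of mature neutrophils, was 6.53-fold and 4.44-fold higher in neutrophils.

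**Figure D2:**
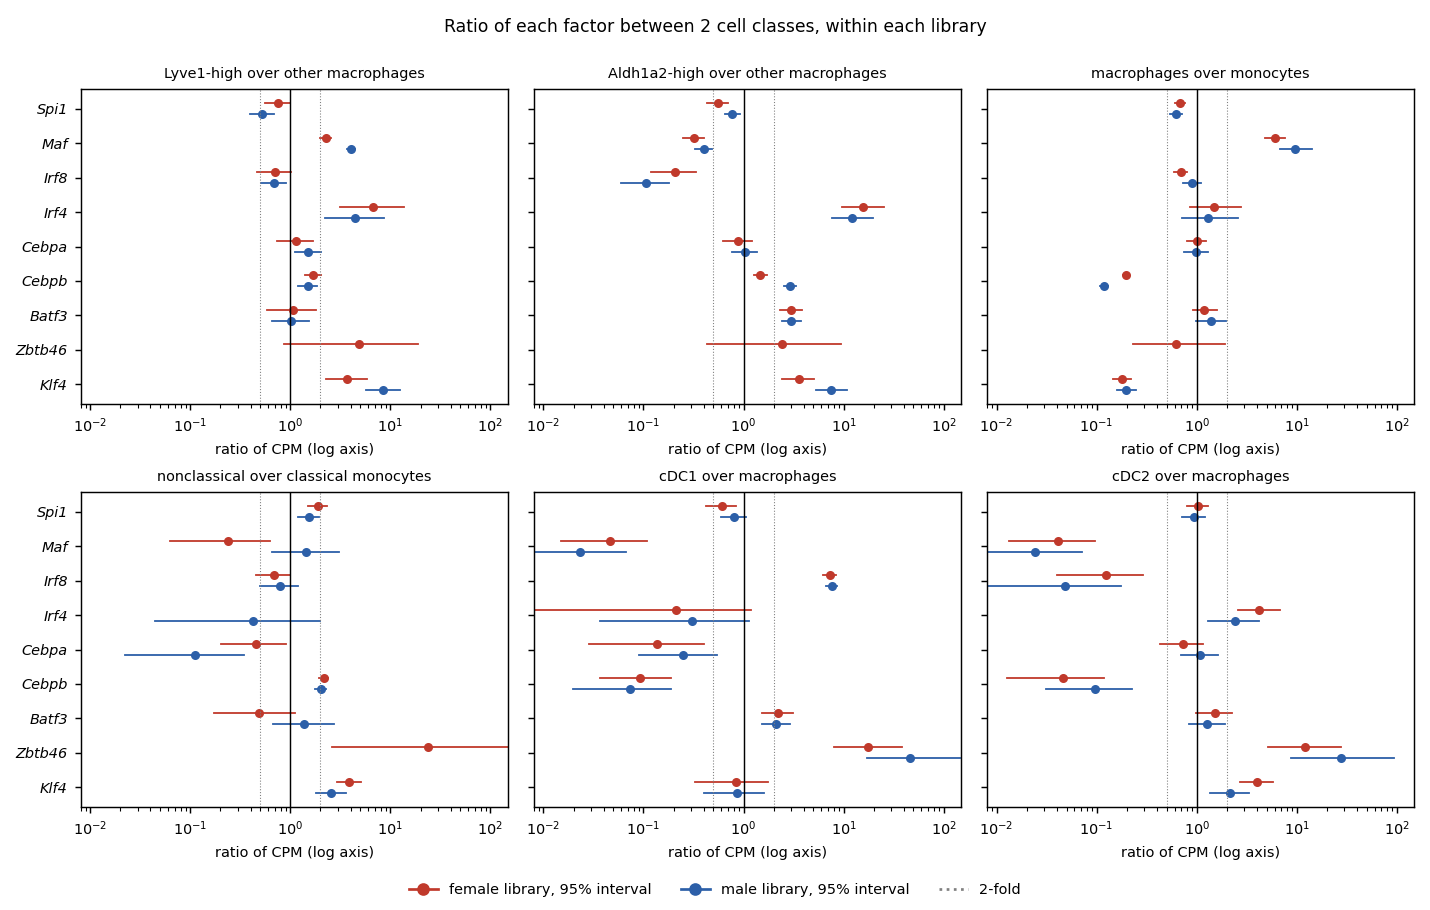
Ratio of CPM between classes for each of the 9 factors in 6 comparisons, on a log axis, with the female library in red, the male library in blue, bars for the exact 95% interval from counting and dotted lines at 2-fold. Maf was 6.02-fold and 9.66-fold higher in macrophages than in monocytes, while Cebpb and Klf4 lay on the opposite side in both libraries.

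Maf encodes c-MAF, a large MAF protein of mature tissue macrophages and of some T cells (chr8:115682942-115707794, − strand, overlapped by Gm15655 on the other strand). Lyve1-high macrophages held 1413 CPM (1244 to 1599) in the female and 2464 CPM (2286 to 2653) in the male library. Other macrophages held 629 CPM (600 to 658) and 607 CPM (577 to 640), and Aldh1a2-high macrophages 202 CPM (158 to 255) and 244 CPM (202 to 291). The order Lyve1-high, other and Aldh1a2-high held in both libraries, with no overlap of intervals between neighbours. After thinning to 1000 UMIs, 71.7% and 82.2% of Lyve1-high macrophages had a Maf UMI. In B cells, which should lack the gene, the share was 1.24% and 1.6%.

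Classical monocytes held Maf at 120 and 65.3 CPM and cDC1 at 29.2 and 16.6 CPM. The macrophage over monocyte ratio was 6.02 (4.83 to 7.59) in the female and 9.66 (6.82 to 14.2) in the male library. Lyve1-high over other macrophages gave 2.25 (1.96 to 2.57) and 4.06 (3.7 to 4.44). With a mitochondrial ceiling of 5% the female value was 1.83, below the rule. Aldh1a2-high over other macrophages gave 0.322 (0.251 to 0.407) and 0.401 (0.33 to 0.484).

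Maf was also present in lymphocytes. T cells held 129 CPM (117 to 142) and 181 CPM (161 to 202), NK cells 73.3 and 114 CPM, and B cells 10.6 and 18.6 CPM. In a division of T cells chosen after their values were seen, cells with Cd4 and no Cd8 UMI held 169 CPM in the female and 228 CPM in the male library. Cells with Cd8 and no Cd4 held 18.3 and 29 CPM, and cells with Trdc or Tcrg-C1 and neither Cd4 nor Cd8 held 161 and 336 CPM. The Cd8 group was thus the lowest of these in both libraries.

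In Lyve1-high against other macrophages, 8 factors were compared, of which 3 were higher (Maf, Klf4 and Irf4) and 0 lower. Of 8329 genes compared, 11.1% were called. Irf4 stood at 6.74-fold (3.13 to 13.6) and 4.45-fold (2.21 to 8.62), from 12 and 15 UMIs in the Lyve1-high cells. These cells carried the cDC2 marker list at 1868 and 2527 CPM, with 3 of its 7 markers at 0 in each library, against 172 and 347 CPM in other macrophages and 2932 and 3419 CPM in cDC2. The part of this in the Irf4 and Klf4 values was not tested. Of 36 related factors, Klf2 was 5.24-fold and 8.81-fold higher, Tcf4 was 2.72-fold and 4.11-fold higher, and 0 were lower. In Aldh1a2-high against other macrophages, 8 factors were compared, 3 were higher (Irf4, Batf3 and Klf4) and 2 lower (Maf and Irf8), with 14.9% of 8445 genes called. Of 37 related factors 3 were higher: Bhlhe40 at 26.5-fold and 29.1-fold, Id2 at 4.77-fold and 6.17-fold, and Klf2 at 5.07-fold and 5.04-fold. Another 4 were lower, among them Irf7 at 0.11 (0.0225 to 0.325) and 0.138 (0.0443 to 0.328), from 3 and 5 UMIs. Nr1h3, the liver X receptor gene, rested on 1 UMI in each library, at 0.19 (0.0047 to 1.12) and 0.103 (0.00256 to 0.605). The set of factors that was high in the Aldh1a2-high cells included Irf4 and Klf4, which were also called in cDC2 against macrophages.

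Irf4, Batf3 and Klf4 were higher together in Aldh1a2-high macrophages, and the 250 bases before a RefSeq start of each gene are shown for that reason (RefSeq, GRCm38.p6, 5′ to 3′ on the strand of the gene). Capitals mark GAGGAA, the core of the PU.1 motif, and GGGCGGGG, the box bound by KLF and SP proteins, on either strand.
Irf4, chr13:30748983-30749232, + strand: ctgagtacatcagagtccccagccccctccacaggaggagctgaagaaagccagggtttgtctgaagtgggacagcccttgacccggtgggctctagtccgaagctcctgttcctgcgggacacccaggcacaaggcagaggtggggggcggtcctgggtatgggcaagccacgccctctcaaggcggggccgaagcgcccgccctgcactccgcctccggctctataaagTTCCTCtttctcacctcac
Batf3, chr1:191098164-191098413, + strand: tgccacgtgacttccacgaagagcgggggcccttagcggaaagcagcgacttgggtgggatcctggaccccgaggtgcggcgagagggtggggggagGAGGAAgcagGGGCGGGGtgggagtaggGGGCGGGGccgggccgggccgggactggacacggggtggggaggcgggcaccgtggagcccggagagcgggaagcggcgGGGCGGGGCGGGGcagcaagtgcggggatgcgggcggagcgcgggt
Klf4, chr4:55532476-55532725, - strand: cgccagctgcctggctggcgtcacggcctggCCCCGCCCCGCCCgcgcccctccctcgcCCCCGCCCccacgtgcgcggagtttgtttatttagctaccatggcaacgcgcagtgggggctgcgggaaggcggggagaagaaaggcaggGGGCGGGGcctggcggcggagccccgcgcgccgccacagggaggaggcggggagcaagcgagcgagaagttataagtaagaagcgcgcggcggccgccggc
GAGGAA was found in the Irf4 promoter on the opposite strand, 19 to 14 bases before the start, and in that of Batf3 153 to 148 bases before it. GGGCGGGG was found 4 times in the Batf3 and 4 times in the Klf4 promoter, with overlapping copies in each, and also in 1 of 2 windows of Irf8, which was lower in the Aldh1a2-high cells. Over 32851 promoters of the same length 23.3% held GAGGAA and 16.1% held GGGCGGGG, so neither match was rare. RefSeq promoters were matched for 7 of the 9 factors. The PU.1 core in Irf4 was part of a composite motif with the IRF half-site first and the ETS core second, on the opposite strand 19 to 10 bases before the start. This order, searched after the sequence had been seen, was held by 2.3% of promoters and by none of the other 6 factors. Neither the composite with the ETS core first (2.3%), the interferon response motif (2.98%) nor a C/EBP motif (TTGCNNAA, 9.56%) was found in any of the 7. The AP-1 motif TGANTCA, held by 6.75%, was found in Zbtb46 alone. RefSeq starts can differ from the gene bounds given with each factor, which come from another annotation. The window of Batf3 lies inside those bounds, past their first base, and so do that of Zbtb46 and the second window of Irf8. A match describes letters in this window and is not a measured binding site.

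Irf8 encodes an interferon regulatory factor required for cDC1 and pDC and for monocyte fate over granulocyte fate (chr8:120736358-120756694, + strand). It was highest in pDC, at 3295 CPM from 123 UMIs in 13 female cells and 4398 CPM from 62 UMIs in 5 male cells. cDC1 held 1524 CPM (1345 to 1721) and 1816 CPM (1625 to 2024). After thinning to 1000 UMIs, 71% and 80.6% of cDC1 had an Irf8 UMI, against 3.31% and 1.54% of T cells. cDC2 held 5 and 2 UMIs, 25.8 and 11.6 CPM, and neutrophils 0 UMIs in both libraries, which with a limit of 3 counts allowed up to 39.3 and 33.7 CPM. The gene thus split the conventional dendritic cell classes, with a cDC1 over cDC2 ratio of 59.2 (25 to 184) and 157 (43 to 1300).

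Away from dendritic cells Irf8 took a middle level. Classical monocytes held 322 and 285 CPM, other macrophages 232 and 286 CPM, nonclassical monocytes 221 and 224 CPM and Lyve1-high macrophages 163 and 196 CPM. The Aldh1a2-high macrophages stood apart at 47.8 CPM (27.8 to 76.5) and 30.7 CPM (17.2 to 50.6), 4.86-fold (3.01 to 8.4) and 9.32-fold (5.61 to 16.7) below other macrophages. In the lymphoid classes NK cells held 268 and 260 CPM, B cells 147 and 160 CPM and T cells 37.7 and 31.8 CPM. NK cells were therefore within the range of monocytes and macrophages for this gene, and a UMI was found in 24% and 19.6% of thinned NK cells.

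Batf3 encodes the AP-1 family partner of IRF8 in cDC1 (chr1:191097847-191108945, + strand). Aldh1a2-high macrophages held 236 CPM (188 to 292) and 278 CPM (233 to 329), cDC1 210 CPM (147 to 291) and 260 CPM (191 to 346), and cDC2 144 CPM (95.9 to 208) and 156 CPM (103 to 228). The interval of cDC1 overlapped both others, so its place was not resolved, while Aldh1a2-high cells and cDC2 overlapped in the female but not in the male library. The cDC1 over cDC2 ratio of 1.46 and 1.66 was not called. Other macrophages held 78.8 and 93.1 CPM, Lyve1-high cells 84.1 and 94.5 CPM, and T and NK cells 1.05 to 3.94 CPM. The Aldh1a2-high cells held 3-fold (2.3 to 3.86) and 2.99-fold (2.4 to 3.72) more than other macrophages. In cDC1 over all macrophages the ratio was 2.2 (1.52 to 3.12) and 2.13 (1.54 to 2.89), and it lay under 2-fold in at least 1 library as a mean over cells. Batf3 was thus at a level in Aldh1a2-high cells whose interval overlapped that of cDC1, and these cells carried far less of the macrophage list than other macrophages did.

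Zbtb46 encodes a zinc finger repressor used as a marker of conventional dendritic cells (chr2:181387762-181459426, − strand). cDC1 held 14 UMIs (81.8 CPM) in the female and 16 UMIs (88.6 CPM) in the male library, and cDC2 11 UMIs (56.7 CPM) and 9 UMIs (52.2 CPM). Other macrophages held 10 UMIs (3.44 CPM) and 2 UMIs (0.843 CPM). The cDC1 over macrophage ratio was 17.6 (7.94 to 38.4) and 46.5 (17.3 to 145), and as a mean over cells the male value was 26.6. A UMI was found in 31.2% and 38.7% of cDC1 before thinning, but in 6.45% and 0% of cells thinned to 1000 UMIs, a level that allows no order of shares. Endothelial cells, which also express this gene in mice, had the highest value, within the interval of cDC1, with 15 UMIs (106 CPM) in 41 female cells and 17 UMIs (132 CPM) in 41 male cells. A sort for CD45 would remove such cells, and they carried 7850 and 8441 CPM of the macrophage list. In the 22 and 24 of them with at most 5 UMIs of that list, Zbtb46 was at 111 and 205 CPM, and Spi1 at 15.8 and 45.6 CPM.

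Irf4 encodes the interferon regulatory factor of cDC2 and of plasma cell differentiation (chr13:30749226-30766976, + strand). Aldh1a2-high macrophages held 155 CPM (116 to 201) and 143 CPM (112 to 181), and cDC2 118 CPM (75.1 to 178) and 86.9 CPM (48.7 to 143), with overlapping intervals. Other macrophages held 9.98 and 11.8 CPM. The Aldh1a2-high over other macrophage ratio was 15.5 (9.71 to 25.2) and 12.1 (7.73 to 19.6). The female value was 28.2 with classes from clusters and 4.81 under the 1.2% ceiling, where Batf3 was at 8.66. cDC1 held 1 and 2 UMIs. The cDC2 over cDC1 ratio was 20.3 (3.29 to 836) and 7.85 (1.83 to 70.7), from too few UMIs to enter the calls. Irf4 and Irf8 thus ran in opposite directions both between cDC2 and cDC1 and between Aldh1a2-high and other macrophages.

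Over the dendritic cell comparisons, cDC1 against cDC2 gave 3 calls among 6 factors, 1 higher (Irf8) and 2 lower (Cebpa and Klf4), with 10.2% of 1804 genes called. Of 14 related factors Id2, the HLH inhibitor required for cDC1, was 9.17-fold and 5.54-fold higher. Zeb2, which restrains cDC1 fate, was at 0.0186 in the female library and at most 0.0531 in the male. In cDC1 against macrophages all 9 factors were compared, 3 were higher (Irf8, Batf3 and Zbtb46) and 4 lower (Maf, Cebpb, Cebpa and Irf4), with 16.3% of genes called. Irf4, at 0.209 and 0.309, had intervals reaching 1.19 and 1.14. In cDC2 against macrophages 8 were compared, with Irf4 at 4.24-fold and 2.42-fold and Klf4 at 4.01-fold and 2.16-fold higher, and Maf, Irf8 and Cebpb lower, while 11.8% of genes were called. As a mean over cells, Klf4 in cDC2 and Irf4 in cDC1 against macrophages lost their calls.

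**Figure D3:**
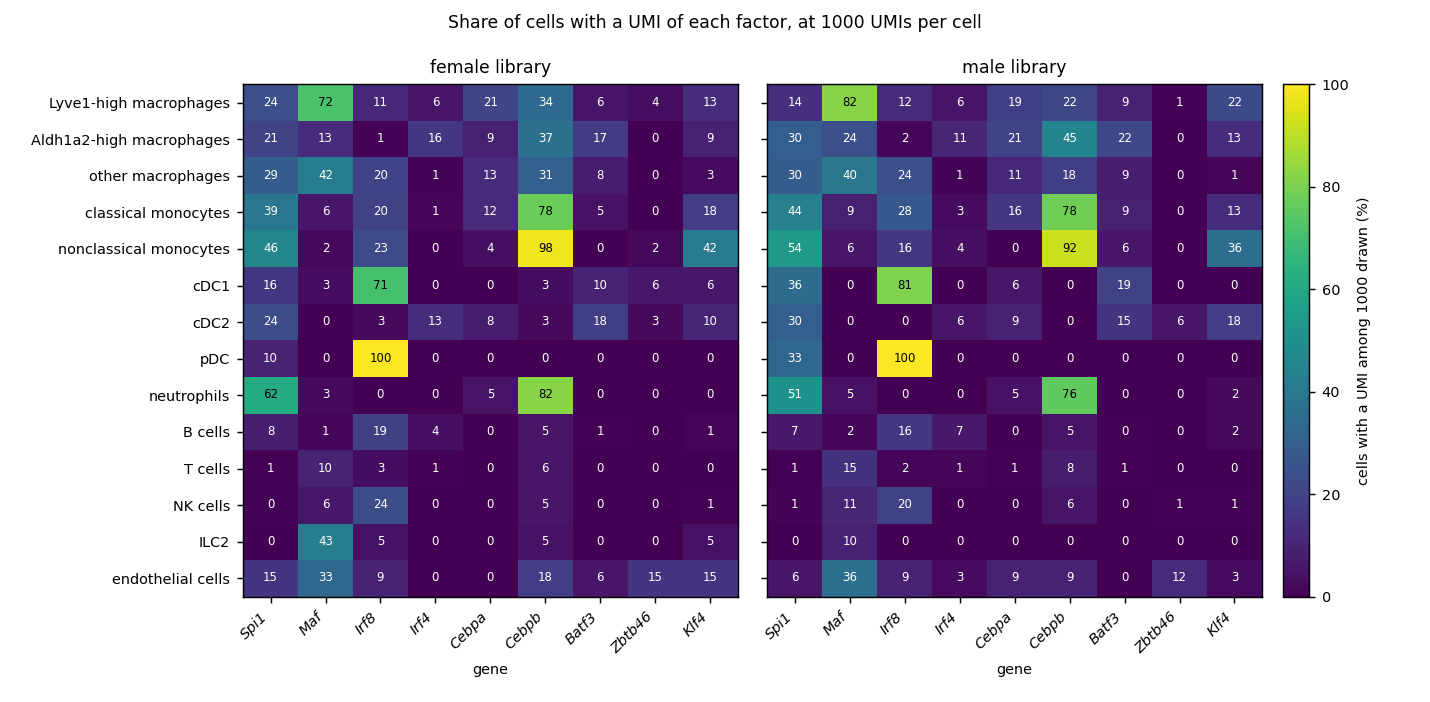
Share of cells with at least 1 UMI of each factor in each class after cells were thinned to 1000 UMIs and shallower cells left out, as percent, with 1 panel per library and a brighter colour for a larger share. Cebpb in nonclassical monocytes (97.9% and 92%), Maf in Lyve1-high macrophages (71.7% and 82.2%) and Irf8 in cDC1 (71% and 80.6%) were among the brightest fields, and all 10 female and 3 male pDC deep enough to be thinned had an Irf8 UMI.

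In B cells against T and NK cells, 6 factors were compared and 4 called, with 18.2% of 9337 genes called. Spi1 is given with its levels. Irf4 was 9.4-fold (6.31 to 14.2) and 22.5-fold (12.2 to 44.7) higher, at 48.9 and 85.8 CPM, with 22.9% and 36.7% of its UMIs in the 5 cells that held most and up to 5 and 11 UMIs in 1 cell. Klf4 was 3.89-fold and 2.32-fold higher, the male interval (0.977 to 5.15) including 1, and its call was lost at the 5% mitochondrial ceiling. Maf was lower, at 0.107 and 0.127. Of 34 related factors, 8 were higher in B cells, and 7 were lower. In the female library Spib was 120-fold (66.3 to 243) and Bcl11a 142-fold (84 to 262) higher. In the male library each rested on 1 UMI in T and NK cells, with ratios of 673 (119 to 26784) and 917 (163 to 36419).

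Further related factors were called beside those named. In macrophages Bcl11a, Nfil3, Bcl6 and Bhlhe40 were below monocytes, and in Aldh1a2-high over other macrophages Tfec, from 1 UMI in each library, and Runx3 were lower. In cDC1 against cDC2 Runx1 and Klf13 were lower. In cDC1 against macrophages 2 were higher, Id2 at 8.82-fold and 8.49-fold and Bcl6, and 14 were lower, among them Zeb2, Mafg, Runx1, Irf1 and Tcf4. In cDC2 against macrophages 3 were higher, Bcl11a at 31.3-fold and 48.6-fold, Bhlhe40 and Relb, and 4 were lower, among them Mafg, Id3 and Etv5, each from 3 or fewer UMIs in cDC2. In neutrophils Klf2, Klf6 and Irf1 were higher and Tcf4, Irf5 and Zeb2 lower than in classical monocytes. In B cells Tcf4, Irf5, Id3 and Bcl6 were higher than in T and NK cells, and Id2, at 0.0202 and 0.0112, Bhlhe40, Zbtb16, Runx3, Nfil3 and Gfi1 were lower.

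As a median log2 ratio, the factors stood at 0.47 in the female and 0.58 in the male library in Lyve1-high over other macrophages, against 0.10 and 0.05 for all genes compared, and at 0.18 and 0.80 in Aldh1a2-high over other macrophages, against -0.05 and -0.06. In nonclassical over classical monocytes the medians were -0.54 and 0.52, against 0.06 and 0.09. With a minimum of 50 UMIs, which left 5 factors there, they were 0.91 and 0.60, against 0.00 and 0.02 for all genes. The sign in the female library thus depended on the factors with few UMIs. In neutrophils over classical monocytes they were -1.85 and -1.23, with genes at 0 set to their bound, against -0.44 and -0.35. The factors stood at -0.12 and 0.25 in cDC1 over cDC2, against -0.11 and -0.07, and at -0.72 and -0.33 in cDC1 over macrophages, against -0.33 and -0.34. In cDC2 over macrophages they stood at -0.21 and 0.01, against -0.17 and -0.18, and in B cells over T and NK cells at 1 and 0.65, against -0.37 and -0.39. At 50 UMIs the medians were 0.19 and 0.58 in Lyve1-high over other macrophages, against 0.08 and 0.03 for all genes. They were 0.54 and 0.73 in cDC1 over cDC2, against 0.02 and 0.01. In cDC1 over macrophages they were -1.49 and -1.01, against -0.53 and -0.49. In B cells over T and NK cells they were 0.04 and 0.09, against -0.37 and -0.39.

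The profile of each factor over 11 classes in both libraries (22 points, log2 of CPM plus 10) was compared with that of 5084 genes. The points shared libraries and background RNA, so the correlations are descriptive. Closest to Spi1 were Ifngr2 (Pearson r 0.958), Themis2 (0.952) and Myadm (0.940), and closest to Cebpb were Fgd4 (0.942), Atp6v1e1 (0.941) and Cd300lb (0.937). Cebpa lay nearest to Hexa (0.947), App (0.946) and Asah1 (0.935), Klf4 to Rras (0.932), Klhl5 (0.923) and Glud1 (0.914), and Maf to Fez2 (0.918), Cmklr1 (0.908) and Sept8 (0.904). Batf3 was nearest to Ucp2 (0.944), H2-DMb1 (0.940) and Shtn1 (0.921), and Zbtb46 to Bckdhb (0.841), Sept3 (0.832) and Cxcl9 (0.810). Irf4 with Nrp2 (0.788) and Irf8 with Iah1 (0.772) had the weakest closest matches. Among the factors themselves the highest values were 0.75 for Spi1 with Cebpa and 0.69 for Cebpa with Batf3 and for Batf3 with Klf4.

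Between the female and the male library, 65 combinations of factor and class had at least 20 UMIs and 2 were called at 2-fold. A ratio here compares 2 libraries, not the sexes. The female Lyve1-high macrophages held 2.07-fold (1.57 to 2.73) more Cebpb than the male, where 8 factors were compared and 10.2% of all genes were called. Of the female Cebpb UMIs, 49.2% lay in the 5 cells that held most, with 27 in 1 cell, and of the male UMIs 37.5%. The female nonclassical monocytes held 0.395 (0.126 to 1.08) of the male Batf3, from 6 and 15 UMIs, where 5 factors were compared and 7.58% of genes were called. Under the 1.2% mitochondrial ceiling this ratio was 1.26, on the other side of 1. In other macrophages 0 of 8 factors were called (3.92% of genes), in Aldh1a2-high macrophages 0 of 8 (6.15%), in classical monocytes 0 of 8 (8.16%), in cDC1 0 of 4 (8.09%), in cDC2 0 of 6 (8.97%) and in neutrophils 0 of 2 (7.97%). In B cells 0 of 6 were called (5.64%), in T cells 0 of 5 (3.59%) and in NK cells 0 of 5 (3.42%). At 2 calls in 65, the factors were not called more often than genes in general in these classes.

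**Figure D4:**
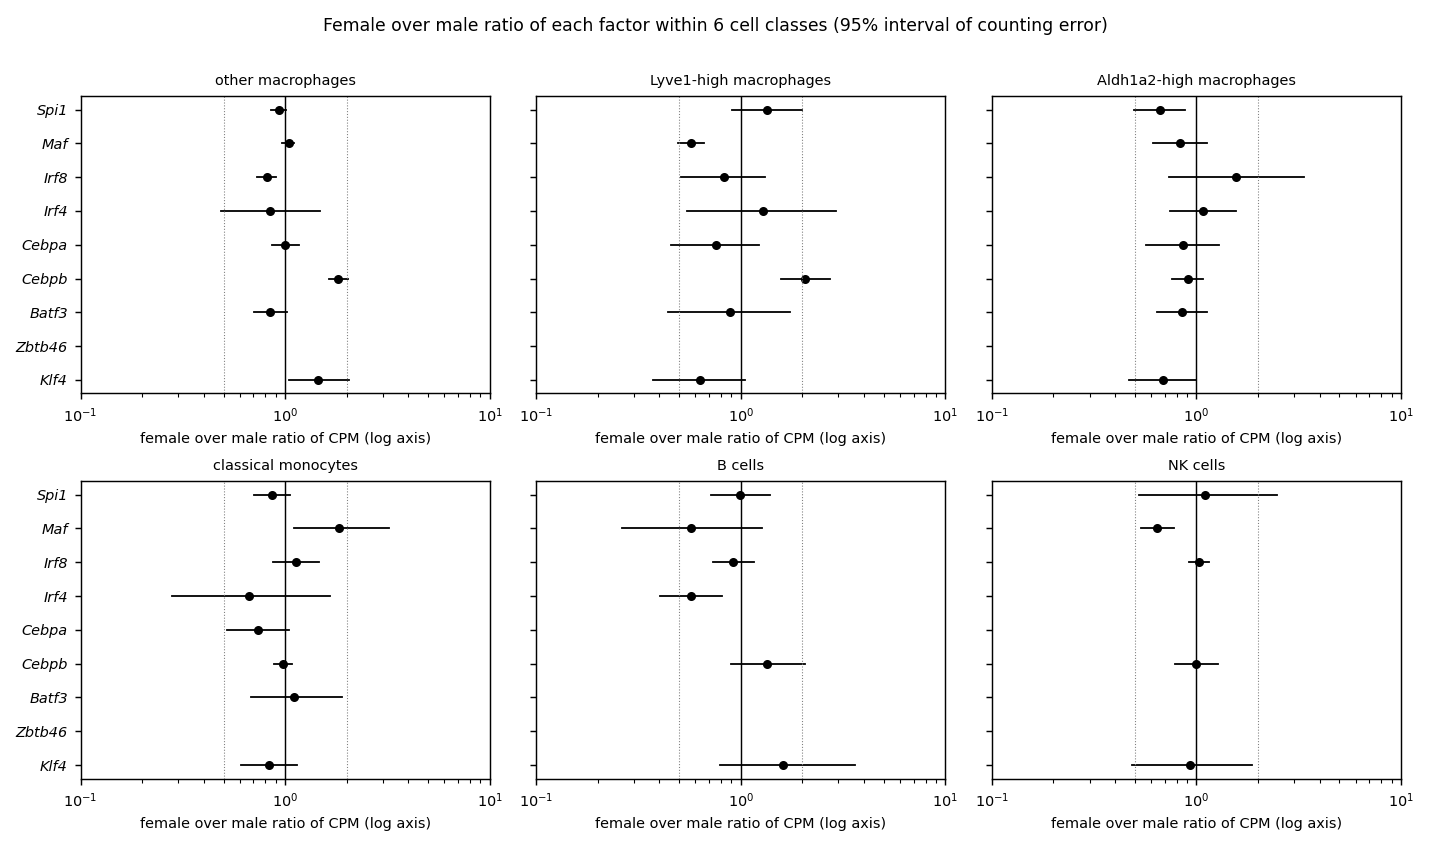
Ratio of female to male CPM of the factors in 6 classes on a log axis, for those with at least 20 UMIs, with dotted lines at 2-fold and bars for the exact 95% interval from counting. Cebpb in other macrophages lay at 1.82 (1.64 to 2.02) and Maf in Lyve1-high macrophages at 0.574 (0.495 to 0.663).

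Several differences below the rule had intervals away from 1. Cebpb was 1.82-fold (1.64 to 2.02) higher in female other macrophages, at 410 against 225 CPM, but stood at 0.755 in the few cells under a mitochondrial ceiling of 1.2%. In Aldh1a2-high macrophages the same ratio was 0.907 (0.76 to 1.08), in classical monocytes 0.976, in nonclassical monocytes 1.05 and in neutrophils 1.01, so of the 6 myeloid classes with enough UMIs the intervals lay above 1 in other macrophages and in Lyve1-high macrophages. cDC1 and cDC2 had too few Cebpb UMIs to be compared. Other macrophages carried the classical monocyte list at 725 CPM in the female and 471 CPM in the male library. They carried the macrophage list at 51555 and 38882 CPM, and the part of these in the Cebpb difference was not tested. Maf was lower in the female library in Lyve1-high macrophages at 0.574 (0.495 to 0.663). That class carried its own Lyve1-high marker list at 4841 CPM in the female and 8454 CPM in the male library, and the part of this in the Maf difference was not tested. Maf was also lower in T cells at 0.717 (0.616 to 0.834) and in NK cells at 0.643 (0.534 to 0.774), where the median gene had a log2 ratio of -0.10. In other macrophages Maf was at 1.04, and in classical monocytes it was higher in the female library at 1.84 (1.1 to 3.21). Klf4 was at 1.45 (1.04 to 2.04) in other macrophages. It lay below 1 in Aldh1a2-high macrophages at 0.687 (0.467 to 0.997). In Lyve1-high macrophages Klf4 was at 0.635 (0.374 to 1.05), an interval that included 1. The T cells with Trdc or Tcrg-C1 and neither Cd4 nor Cd8 were 91 of 729 in the female and 71 of 397 in the male library. The part of this in the Maf difference of T cells was not tested. Irf8 was at 0.812 (0.729 to 0.905) in other macrophages, Irf4 at 0.57 (0.404 to 0.808) in B cells, and Spi1 at 0.66 (0.493 to 0.877) in Aldh1a2-high macrophages.

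Other macrophages were also divided by their MHC class II RNA, the antigen presentation genes Cd74, H2-Eb1, H2-Ab1 and H2-Aa, at 10 UMIs per 1000 drawn. The low group held 167 of 656 female cells (25.5%) and 26 of 564 male cells (4.61%). Cebpb was higher in the low than in the high group in both libraries, at 596 against 342 CPM in the female (1.75-fold, 1.55 to 1.97) and 728 against 196 CPM in the male (3.71-fold, 2.85 to 4.77). Klf4 was at 51.8 against 28.9 CPM (1.79-fold, 1.17 to 2.72) and at 101 against 16.5 CPM (6.12-fold, 2.71 to 12.6), the male from 10 and 36 UMIs. Spi1 was at 0.847 and 0.924 and Maf at 0.982 and 0.808 of the high group.

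Within the high group alone the female over male Cebpb ratio was 1.74 (1.54 to 1.97), and within the low group it was 0.819 (0.637 to 1.07). Cells under 1000 UMIs were left out of this division, so these ratios cover fewer cells than the 1.82 given for all other macrophages. The classical monocyte list was at 1045 CPM in the low and 608 CPM in the high group of the female library, and at 637 and 450 CPM in the male. The Aldh1a2-high list was at 2770 CPM in the male low and 146 CPM in the male high group. Without cells holding 2 or more UMIs of the monocyte lists, a limit chosen after the data were seen, the Cebpb low over high ratio was 1.69 (1.35 to 2.09) in the female and 1.67 (0.986 to 2.68) in the male library, where 15 low cells remained and Klf4 had 0 UMIs in them. The male values of both genes therefore rested on few cells. In the female library the Klf4 low over high ratio under this limit was 2.88 (1.22 to 6.52), from 11 and 17 UMIs. Within the high group under this limit, female over male Cebpb was 1.73 (1.45 to 2.08).

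**Figure D5:**
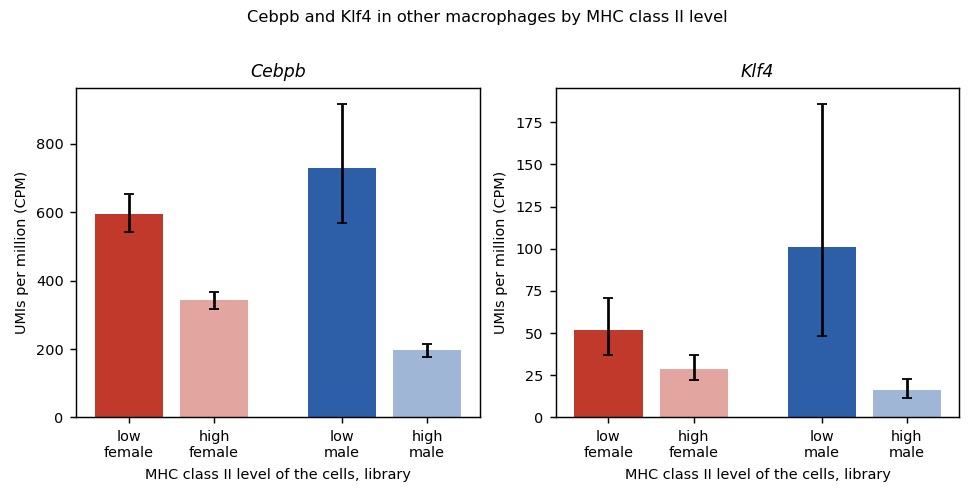
CPM of Cebpb and Klf4 in other macrophages with low and high MHC class II RNA, as bars from 0 for the female (red) and the male (blue) library with exact 95% Poisson intervals. Cebpb lay at 596 and 342 CPM in the female and at 728 and 196 CPM in the male library for the low and the high group.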

How the data were processed

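CD45+ live cells from adrenal glands were loaded by the study on a 10x Genomics Chromium controller (3' chemistry v3.1), and the authors processed the reads with Cell Ranger 4.0.0 on mm10 and deposited UMI counts per gene and cell, with no normalization. Per the labels there was 1 library per sex. The methods state a mitochondrial ceiling of 1.2%, which in these matrices would leave 327 of 3963 female and 359 of 2685 male barcodes. The study kept far more cells than that, so the ceiling as written cannot be the filter that gave its cells, and it served here only as an alternative. Here cells with at least 200 genes and at most 15% mitochondrial UMIs were kept. Scrublet's automatic threshold marked 2 and 10 barcodes and had not worked, so the highest doublet scores, 0.8% for each 1000 barcodes, were taken out (124 and 52 cells).

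A cell took the class whose markers it detected most completely, with at least 3 markers and a lead of 0.1 over the next, a scoring rule set after the counts were seen. Counts were summed by class and library and given as CPM. Exact Poisson intervals for levels, exact conditional binomial intervals for ratios and Clopper-Pearson intervals for shares (thinned to 1000 UMIs) were made with scipy 1.17.1 and scanpy 1.11.5 in Python 3.11.15. A level of 0 was bounded at 3 counts per class. Calls used a 2-fold threshold and at least 20 UMIs. On counts simulated with Poisson noise only, the rule recovered 80% to 99.5% of genes changed 4-fold over the 9 comparisons. It called 0.0654% to 1.38% of unchanged genes. The changed genes had at least 50 expected UMIs in each library. Changes of 2-fold, changed genes with fewer UMIs and UMIs gathered in few cells were not simulated, so these rates do not cover such calls. The rule for named genes took all 9 factors, and of the related factors called between classes at most the 6 with the largest ratio in each direction. Factor levels not printed in the text are in the plot of levels by class, and 1 item is not reported here. The factors, the marker lists and the list of 43 related factors were chosen with earlier results of these data known. Alternatives were a mitochondrial ceiling of 5% or 1.2%, no removal of doublets, cells with at least 1000 UMIs, a stricter gate (4 markers), classes from clusters, a mean over cells, and a minimum of 50 UMIs. Coordinates are from the GRCm38 annotation and promoters from RefSeq. Leaving out a replicate was not possible with 1 library per sex.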

Additional observations from a re-analysis of the deposited data

How the results depend on the processing

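No paired analysis was possible because each sex has 1 library. No called ratio between classes turned direction under any alternative that gave a value. With a mitochondrial ceiling of 5%, 32 of 34 called ratios kept their 2-fold size, with no removal of doublets 35 of 35, with cells of at least 1000 UMIs 34 of 34, with the stricter gate 32 of 34, with clusters 19 of 19 and with a mean over cells 30 of 34. Clusters gave no cDC1, cDC2, pDC or ILC2 and so no values there, and 18 of the 37 calls had no value with them. The other settings given so far left 2 or 3 of the 37 without a value. At the 1.2% ceiling 31 calls had no value, 3 of the 6 with a value remained, and this setting held few cells. Under it Batf3 in Aldh1a2-high over other macrophages was 8.66 and Irf4 4.81 in the female library, Cebpb in nonclassical over classical monocytes was 2.96 in the female and 1.51 in the male library, and Klf4 there 6.68 in the female and 1.98 in the male. The third lost call was Klf4 in Aldh1a2-high over other macrophages. Female over male Cebpb in other macrophages was 0.755 and female over male Batf3 in nonclassical monocytes 1.26, on the opposite side of 1. The 5% ceiling gave 1.83 for female Maf in Lyve1-high over other macrophages and 0.469 for female over male Maf in Lyve1-high macrophages. The stricter gate gave 2.7 for the former. Clusters gave 28.2 for female Irf4 in Aldh1a2-high over other macrophages, 3.67 for male Maf in Lyve1-high over other macrophages and 2.03 for female over male Cebpb in other macrophages. A mean over cells gave 0.181 for female Cebpb in macrophages over monocytes, 3.52 for male Maf in Lyve1-high over other macrophages and 0.715 for female over male Maf in Lyve1-high macrophages. With no doublets removed, female Spi1 in B cells over T and NK cells was 4.68. In MHC class II low cells alone, female over male Cebpb was 0.819. At 50 UMIs or more, 130 genes were called in nonclassical over classical monocytes, 68 in cDC1 over cDC2 and 547 in neutrophils over classical monocytes, since fewer genes were compared. At that minimum the calls of Irf4 in Lyve1-high over other macrophages, Cebpa and Klf4 in cDC1 over cDC2, Zbtb46 in cDC1 over macrophages, Batf3 in neutrophils over classical monocytes and Klf4 in B cells over T and NK cells had too few UMIs to enter. The cause was not tested for the other values. Zbtb46 had 14 and 16 UMIs in cDC1 and Irf4 1 and 2, so their ratios there have wide intervals.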

Other observations

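Outside the classes compared above, the factors had further levels. Group 2 innate lymphoid cells (21 female and 10 male) held Maf at 396 CPM from 25 UMIs and 168 CPM from 8 UMIs, and 0 UMIs of Spi1 in both libraries. This class was led by Tcrg-C1, a T cell receptor gene. Endothelial cells held Maf at 717 and 731 CPM, and at 285 and 912 CPM in those with at most 5 UMIs of the macrophage list, a limit chosen after the data were seen. pDC held Spi1 at 161 and 213 CPM, and Tcf4, the factor required for pDC, at 2063 and 2412 CPM. The cells left without a class held Cebpb at 498 and 635 CPM and Spi1 at 239 and 248 CPM.

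Among related factors, Klf2 was at 3145 and 3136 CPM in neutrophils and Cebpd at 695 and 641 CPM. Bcl11a was at 857 and 851 CPM in pDC, and Spib at 186 and 197 CPM in B cells and 375 and 638 CPM in pDC. Nr4a1 was at 1261 and 1305 CPM in nonclassical monocytes. Bhlhe40 was at 146 and 85.9 CPM in Aldh1a2-high macrophages. The immediate early genes, which can be induced during tissue digestion, summed to 479 and 520 CPM in the low and high MHC class II groups of female other macrophages and to 1466 and 569 CPM in the male, and their part in the Klf4 and Cebpb values was not tested.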
